A study of Mus musculus with 9 samples.

Results

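The genes described here are 10 genes best known from the T cell receptor complex and its first signalling steps. They are Cd3e, Cd3d, Cd3g, Cd247, Lck, Cd5, Cd28, Cd2, Thy1 and Bcl11b, chosen by gene symbol from the 14862 genes in the expression table, and all 10 were found. RNA was sequenced from dendritic cells of the spleen of C57Bl/6 mice aged 8 to 12 weeks, in 9 libraries. The groups were 3 libraries of type 1 conventional dendritic cells (cDC1), 3 of type 2 conventional dendritic cells (cDC2) and 3 of a subset labelled mcDC, an abbreviation that the field uses for merocytic dendritic cells and that the labels do not expand. No genotype or treatment is given beyond the strain. Sort markers are not given in the sources used here, nor is it said whether replicate libraries stand for different mice or for pools. The p-values therefore refer to variation among the libraries at hand, some or all of which may be technical. Titles are numbered consecutively, with 1 library per subset in every run of 3 numbers. These title runs give replicates 1, 2 and 3, and what a run has in common is not stated.

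On a T cell, the antigen-binding receptor chains have no signalling tail of their own and travel to the surface with the CD3 gamma, delta, epsilon and zeta chains, whose tails carry tyrosine motifs. The kinase LCK, carried by the CD4 and CD8 coreceptors, phosphorylates these motifs, and ZAP70 and the adaptors LAT and SLP-76 pass the signal on. CD5 dampens that signal, CD28 and CD2 add to it on meeting their ligands on a presenting cell, THY1 is a small surface glycoprotein, and BCL11B is a transcription factor that fixes T cell fate. Dendritic cells lie on the other side of this contact, as the cells that display antigen and carry the ligands, and mouse splenic cDC1 are known for CD8 alpha on their surface.

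The promoter windows of Cd3g, Cd3d, Cd3e and Cd5 are shown because the first 3 are neighbours on chromosome 9 whose levels are compared with each other, while Cd5 had its lowest levels in another subset than they did. Each window runs 5′ to 3′ on the gene's own strand, from 250 bases before the annotated start to 50 after it. The sequences are those of RefSeq for GRCm38.p6, in which Cd3g lies at chr9:44980382-44980681 on the minus strand, Cd3d at chr9:44981536-44981835 on the plus strand, Cd3e at chr9:45009562-45009861 on the minus strand and Cd5 at chr19:10738925-10739224 on the minus strand. Capitals mark matches on either strand to 6 short motifs. The E-box was searched as CANNTG on both strands. The ETS core was searched as AGGAAG. The TCF core was searched as TCAAAG. The letters AGATAA stood for the GATA core. The letters TGTGGT stood for the RUNX core. A TATA box was searched as TATAAA, and no matches of different motifs overlap in these windows.
Cd3g: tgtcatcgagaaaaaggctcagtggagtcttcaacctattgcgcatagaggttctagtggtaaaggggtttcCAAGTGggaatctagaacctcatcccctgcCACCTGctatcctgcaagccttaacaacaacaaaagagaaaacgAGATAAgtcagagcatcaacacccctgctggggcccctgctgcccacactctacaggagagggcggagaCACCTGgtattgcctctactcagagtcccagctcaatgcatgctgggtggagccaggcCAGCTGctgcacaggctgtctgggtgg
Cd3d: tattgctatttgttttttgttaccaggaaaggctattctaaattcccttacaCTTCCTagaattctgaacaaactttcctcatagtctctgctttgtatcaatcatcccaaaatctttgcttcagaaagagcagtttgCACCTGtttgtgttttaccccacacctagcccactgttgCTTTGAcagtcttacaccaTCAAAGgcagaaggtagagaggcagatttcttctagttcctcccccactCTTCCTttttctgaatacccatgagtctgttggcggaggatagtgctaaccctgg
Cd3e: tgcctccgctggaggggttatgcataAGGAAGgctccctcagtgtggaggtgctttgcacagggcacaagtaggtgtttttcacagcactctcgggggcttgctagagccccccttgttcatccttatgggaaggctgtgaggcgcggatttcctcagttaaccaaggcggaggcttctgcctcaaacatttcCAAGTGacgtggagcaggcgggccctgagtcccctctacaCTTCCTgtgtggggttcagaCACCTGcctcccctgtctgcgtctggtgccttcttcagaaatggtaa
Cd5: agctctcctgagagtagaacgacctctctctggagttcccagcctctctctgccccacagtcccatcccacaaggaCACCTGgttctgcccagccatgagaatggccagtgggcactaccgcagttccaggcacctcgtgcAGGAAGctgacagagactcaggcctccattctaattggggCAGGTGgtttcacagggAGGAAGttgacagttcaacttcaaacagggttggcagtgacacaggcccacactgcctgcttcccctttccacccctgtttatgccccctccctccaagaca
The starts of Cd3g and Cd3d are 1355 bases apart and point away from each other, and that of Cd3e lies 27825 bases from that of Cd3d. The Cd3g window held 4 E-box matches and 1 GATA match, and none to the ETS letters. In the Cd3d window there were 1 E-box match, 2 ETS matches and 2 TCF matches. The Cd3e window and the Cd5 window each held 2 E-box and 2 ETS matches, and none of the 4 windows matched the RUNX or TATA letters. These letters are common, with the E-box found in 72.3% of 32851 windows of the same length, the ETS letters in 35.4%, RUNX in 16.8%, TCF in 16.0%, TATA in 13.6% and GATA in 11.2%. Windows were matched for 7 of the 10 genes, and Cd2, Cd28 and Thy1 are given by name.

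Depth was lowest in mcDC, with 5.14 to 8.22 M reads a library, and otherwise lay between 9.19 and 12.43 M. Levels are RPKM, which divide reads by gene length in kb and by the library total in M, and a single read equals 0.08 to 0.195 RPKM for 1 kb of length. All 14 markers of conventional dendritic cells that were examined had reads in every library, with summed levels of 14500 to 22400 RPKM. In mcDC replicate 3, the shallowest library, 12.35% of genes had no read, against a low of 2.71% among the 9 libraries. Differences were tested with limma on log2(RPKM + 1) in 1 fit of all 9 libraries, and a gene was called at a Benjamini-Hochberg adjusted p under 0.05 over 11971 genes, those exceeding 1 RPKM in 2 or more libraries. Of the 10 genes, 9 passed that filter and Bcl11b did not, and this fit is named the main test below. Cells of a subset that each hold little of an RNA, and a small number of other cells that hold much of it, cannot be told apart in such bulk libraries.

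All 10 genes had reads in every library, at levels from 0.157 to 21.0 RPKM. The group means placed Lck, Cd5 and Thy1 highest in mcDC, at 13.3 ± 6.61, 11.5 ± 1.81 and 11.3 ± 7.47 RPKM (SD, n = 3), with 64.6%, 60.9% and 60.6% of all genes below them. In cDC1 the highest were Thy1 and Cd3g, at 10.4 ± 4.87 and 9.18 ± 3.95 RPKM, and in cDC2 Cd5 stood first at 11.9 ± 1.34 RPKM. The next gene in cDC2 was Thy1, at 3.66 ± 2.16 RPKM. Cd28, Cd247 and Bcl11b were the lowest in every subset, with means of 0.291 to 1.45 RPKM and 16.4% to 27.9% of genes below them.

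**Figure D1:**
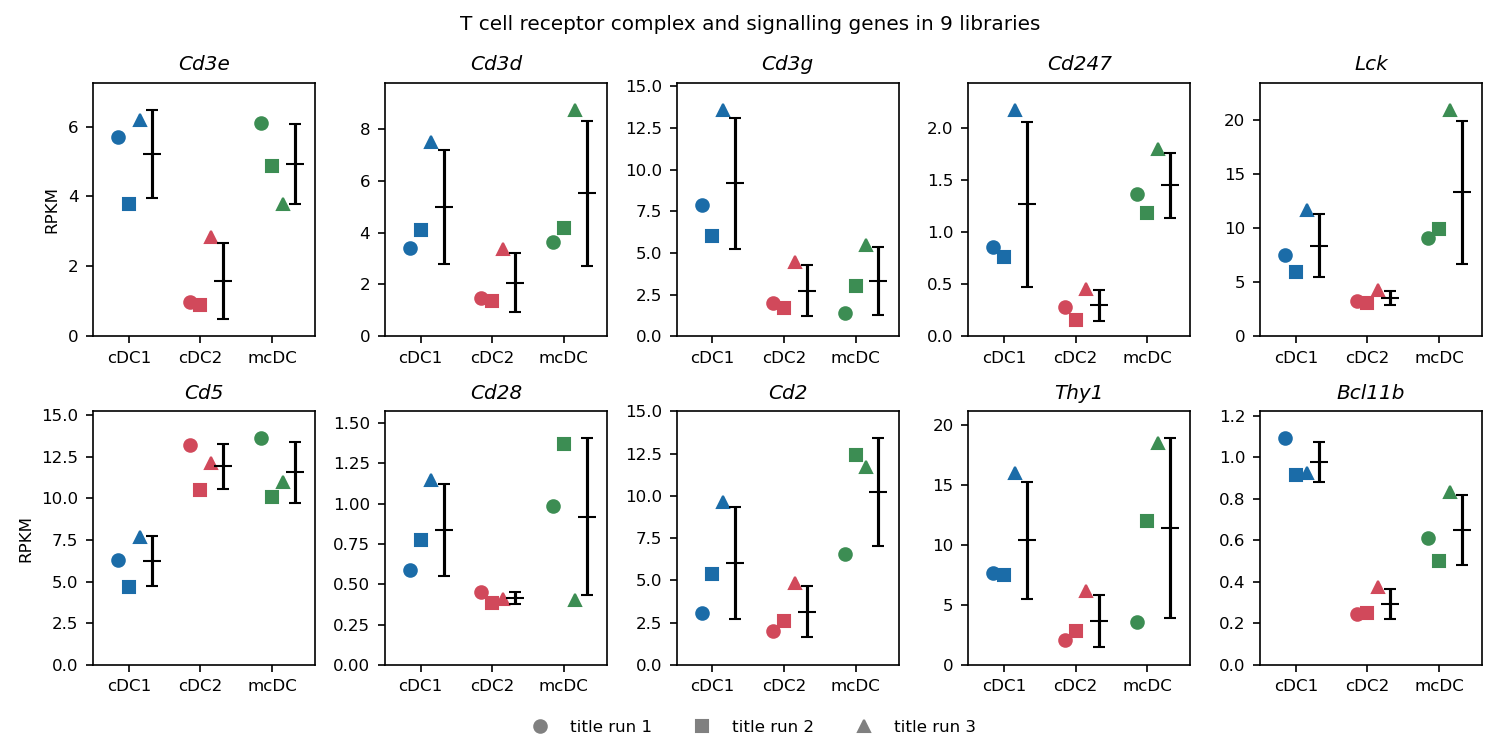
Level of each of the 10 genes in RPKM (linear axes from 0, 1 panel per gene) in the 9 libraries, with marker shapes for the 3 title runs and a bar for the mean and SD of the 3 libraries of each subset. For 9 of the genes the lowest mean is in cDC2, and for Cd5 it is in cDC1, at 6.23 ± 1.49 RPKM.

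Among the CD3 chains, Cd3e and Cd3g were called higher in cDC1 than in cDC2, and no chain was called in a comparison with mcDC in the main test. Cd3e (Entrez 12501), the epsilon chain, was at 5.69, 3.79 and 6.18 RPKM in replicates 1, 2 and 3 of cDC1, at 0.984, 0.906 and 2.85 in those of cDC2, and at 6.09, 4.88 and 3.79 in those of mcDC. These values rest on 13 to 90 reads a library, and the 3 cDC2 libraries lay below the other 6. The difference of cDC1 from cDC2 was 1.33 ± 0.30 (log2 of RPKM + 1, ± SE) with an adjusted p of 0.0123 by limma. That call was lost, with adjusted p values of 0.0572, 0.0526 and 0.0586, when cDC1 replicate 3, cDC2 replicate 1 or cDC2 replicate 2 was left out, and it ranged from 0.00109 to 0.0586 over the alternatives. For mcDC against cDC2 the difference in Cd3e was 1.26 ± 0.30 with an adjusted p of 0.0557, or 0.0434 in a fit with the title run as replicate block (limma, 0.00804 to 0.236 over the alternatives). The difference of mcDC from cDC1 was -0.07 ± 0.30, smaller than its error.

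Cd3d (Entrez 12500), the delta chain, was at 3.41, 4.09 and 7.52 RPKM in cDC1, at 1.47, 1.37 and 3.38 in cDC2 and at 3.65, 4.19 and 8.76 in mcDC, from 18 to 97 reads. Again the 3 cDC2 libraries were the lowest, but the highest of them lay just under the lowest cDC1 library. In every subset replicate 3 was the highest. The difference of cDC1 from cDC2 was 0.97 ± 0.37 with an adjusted p of 0.108, and the title-run block made it 0.97 ± 0.16 with 0.00295 (limma, 0.00117 to 0.341 over the alternatives). For mcDC against cDC2 the values were 1.07 ± 0.37 and 0.17, and with the block 1.07 ± 0.16 and an adjusted p of 0.00882 (limma, 0.00882 to 0.466 over the alternatives).

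Cd3g (Entrez 12502), the gamma chain, was at 7.9, 6.03 and 13.6 RPKM in cDC1, at 2.02, 1.7 and 4.48 in cDC2 and at 1.42, 2.99 and 5.5 in mcDC. The cDC1 libraries were the 3 highest, and those of cDC2 and mcDC overlapped. The mcDC values rest on 12, 17 and 29 reads, against 68 to 135 in cDC1. Cd3g was 1.45 ± 0.42 higher in cDC1 than in cDC2 on the log2 scale, with an adjusted p of 0.0364 by limma and 0.00198 under the title-run block. That call was lost without a filter on low values (0.0507), and when a library was dropped, namely cDC1 replicate 1 (0.0748) or 3 (0.143), cDC2 replicate 1 (0.119) or 2 (0.139), or mcDC replicate 2 (0.0567), and it ranged from 0.00147 to 0.143. Against cDC1, mcDC differed by -1.29 ± 0.42 with an adjusted p of 0.0683, or 0.00515 under the title-run block (limma, 0.00515 to 0.23 over the alternatives). Without mcDC replicate 3 the adjusted p by limma, with no block, was 0.0175. The difference of mcDC from cDC2 was 0.17 ± 0.42.

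Cd247 (Entrez 12503), the zeta chain, was at 0.858, 0.766 and 2.18 RPKM in cDC1, at 0.284, 0.157 and 0.452 in cDC2 and at 1.37, 1.19 and 1.8 in mcDC. The cDC2 libraries, with 9 to 28 reads, were the lowest, and 1 cDC1 library stood above all 3 of mcDC. No comparison was called by limma in the main test. For cDC1 against cDC2 the difference was 0.76 ± 0.26 with an adjusted p of 0.0765, or 0.0392 under the title-run block (0.0205 to 0.261 over the alternatives). For mcDC against cDC2 it was 0.92 ± 0.26 with 0.101, or 0.0497 with the block (0.0497 to 0.344 over the alternatives). In the annotation of GRCm38, 3007 of the 5329 exon bases of Cd247 are shared with Pou2f1, a transcription factor gene on the opposite strand, and whether the counting used strand was not given in the sources used here. Pou2f1 was at 2.24 to 4.37 RPKM in cDC1, 2.58 to 3.68 in cDC2 and 0.917 to 5.25 in mcDC, and its lowest library, mcDC replicate 3, was the highest mcDC library for Cd247. The part of shared reads in the Cd247 values was not tested.

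Lck (Entrez 16818), the kinase that starts receptor signalling, was called higher in mcDC than in cDC2. Its levels were 7.54, 5.97 and 11.7 RPKM in cDC1, against 3.23, 3.03 and 4.25 in cDC2, and were 9.11, 9.94 and 21.0 in mcDC, from 74 to 283 reads. The cDC2 libraries were the 3 lowest, while those of cDC1 and mcDC overlapped. The difference of mcDC from cDC2 was 1.59 ± 0.32 with an adjusted p of 0.0267 by limma. It was 0.0626 when the 2 groups were fitted alone, and 0.088, 0.128, 0.0738 and 0.0511 without cDC2 replicate 1, 2 or 3 or mcDC replicate 2, within a range of 0.0032 to 0.128 over the alternatives. For cDC1 against cDC2 the difference was 1.03 ± 0.32 with an adjusted p of 0.0507, and 0.00447 under the title-run block (limma, 0.00107 to 0.188 over the alternatives). The difference of mcDC from cDC1 was 0.56 ± 0.32 with an adjusted p of 0.287.

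Cd5 (Entrez 12507), the receptor that restrains signalling, was lowest in cDC1 and not in cDC2. In replicates 1, 2 and 3 it was at 6.32, 4.69 and 7.68 RPKM in cDC1, at 13.2, 10.5 and 12.1 in cDC2 and at 13.6, 10.1 and 11.0 in mcDC, from 107 to 312 reads. All 3 cDC1 libraries lay below the other 6, and those of cDC2 and mcDC overlapped. The difference of cDC1 from cDC2 was -0.86 ± 0.19 with an adjusted p of 0.0103 by limma, and it stayed called in all 19 fits, at 0.00115 to 0.0474. That of mcDC from cDC1 was 0.81 ± 0.19 with 0.0186, and it was lost with the 2 groups alone (0.0654) and without cDC1 replicate 2 (0.0779), within a range of 0.00327 to 0.0779. The difference of mcDC from cDC2 was -0.05 ± 0.19.

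The costimulatory receptors Cd28 and Cd2 were not called in any comparison by limma in the main test. Cd28 (Entrez 12487), the receptor for CD80 and CD86, was at 0.589, 0.777 and 1.15 RPKM in cDC1, at 0.453, 0.382 and 0.41 in cDC2 and at 0.984, 1.37 and 0.405 in mcDC. The cDC1 libraries lay above those of cDC2, and mcDC replicate 3, with 9 reads, fell among the cDC2 values. Its differences from cDC2 were 0.37 ± 0.24 in cDC1 and 0.41 ± 0.24 in mcDC, with adjusted p values of 0.373 and 0.443, and it was above 1 RPKM in only 2 of the 9 libraries.

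Cd2 (Entrez 12481), an adhesion receptor that binds CD48 in mice, was at 3.1, 5.39 and 9.65 RPKM in cDC1, at 2.0, 2.58 and 4.85 in cDC2 and at 6.58, 12.4 and 11.7 in mcDC. The mcDC libraries lay above those of cDC2, while cDC1 overlapped both. The difference of mcDC from cDC2 was 1.46 ± 0.39 with an adjusted p of 0.0796, or 1.46 ± 0.20 with 0.0066 under the title-run block (limma, 0.0032 to 0.264 over the alternatives). For cDC1 against cDC2 it was 0.72 ± 0.39 with 0.26, or 0.0348 under the block (limma, adjusted p, 0.00782 to 0.654 over the alternatives), and it was 0.37 without cDC1 replicate 3. That of mcDC from cDC1 was 0.74 ± 0.39 with an adjusted p of 0.245, or 0.0363 under the block (limma, 0.00744 to 0.569 over the alternatives).

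Thy1 (Entrez 21838), the surface glycoprotein CD90, was at 7.64, 7.48 and 16.0 RPKM in cDC1, at 2.07, 2.8 and 6.11 in cDC2 and at 3.57, 12.0 and 18.5 in mcDC. The cDC1 libraries were all above those of cDC2, and mcDC covered nearly the whole range of both. Of the 10 genes, this one had the widest spread among the mcDC libraries, with an SD of 7.47 RPKM. The difference of cDC1 from cDC2 was 1.30 ± 0.53 with an adjusted p of 0.13, or 0.00953 under the title-run block (limma, 0.0077 to 0.375 over the alternatives). For mcDC against cDC2 it was 1.27 ± 0.53 with 0.267, or 0.0353 under the block (limma, adjusted p, 0.0337 to 0.569 over the alternatives).

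Bcl11b (Entrez 58208), the T cell fate factor, was at 1.09, 0.916 and 0.924 RPKM in cDC1, at 0.247, 0.252 and 0.375 in cDC2 and at 0.613, 0.499 and 0.833 in mcDC, from 18 to 95 reads over its 7.93 kb. The 3 subsets did not overlap, with cDC1 highest and cDC2 lowest. It was above 1 RPKM in 1 library and so was outside the main test. In the fit without a filter the difference of cDC1 from cDC2 was 0.61 ± 0.13 with an adjusted p of 0.0106 by limma, that of mcDC from cDC1 was -0.27 ± 0.13 with 0.231, and that of mcDC from cDC2 was 0.35 ± 0.13 with 0.22.

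Between cDC1 and cDC2, 3 of the 9 tested genes were called, Cd3e and Cd3g higher in cDC1 and Cd5 lower, where 19.6% of all tested genes were called, 8.85% higher and 10.7% lower. At an unadjusted p under 0.05 there were 7 of the 9, against 29.8% of all tested genes. Under the title-run block 8 were called, 7 higher and 1 lower, against 24.6%. Between libraries there was no overlap for 8 of the 10 genes in the higher direction (all but Cd2 and Cd5), where 20.1% of all genes were so placed, and for Cd5 in the lower direction, where the share was 21.6%. The median difference of the 10 genes without a filter was 0.862, and that of all genes was 0 (log2).

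Between mcDC and cDC1, Cd5 was the 1 gene of 9 called, higher in mcDC, where 15.4% of all tested genes were called, 9.53% higher and 5.88% lower. Higher genes were 61.8% of those called, or 46.5% and 47.7% with median-of-ratios and quantile scaling. Under the title-run block 3 of the 9 were called, Cd5 and Cd2 higher and Cd3g lower in mcDC, against 2474 of 11971 tested genes. Libraries did not overlap for Cd5 in the higher direction (17.6% of all genes) or for Cd3g and Bcl11b in the lower direction (9.99%). The median difference was 0.071 for the 10 genes and 0.09 for all genes, and under quantile or median-of-ratios scaling the median of the 9 tested genes went from 0.099 to -0.043 or -0.016.

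Between mcDC and cDC2, Lck was the 1 gene called, higher in mcDC, where 3.66% of all tested genes were called, 2.06% higher and 1.6% lower. At an unadjusted p under 0.05 there were 6 of the 9, against 16.7% of all tested genes. Under the title-run block 6 were called, all higher in mcDC, against 6.46%. Of all genes called, 56.4% were higher in mcDC, or 42.8% and 46.2% with median-of-ratios and quantile scaling. Libraries did not overlap for Cd3e, Cd3d, Cd247, Lck, Cd2 and Bcl11b, all in the higher direction, against 14% of all genes, and for 0 in the lower direction, against 7.21%. The median difference was 0.991 for the 10 genes and 0.071 for all genes. The 3 comparisons share their groups, so that the low cDC2 values enter both comparisons with cDC2.

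**Figure D2:**
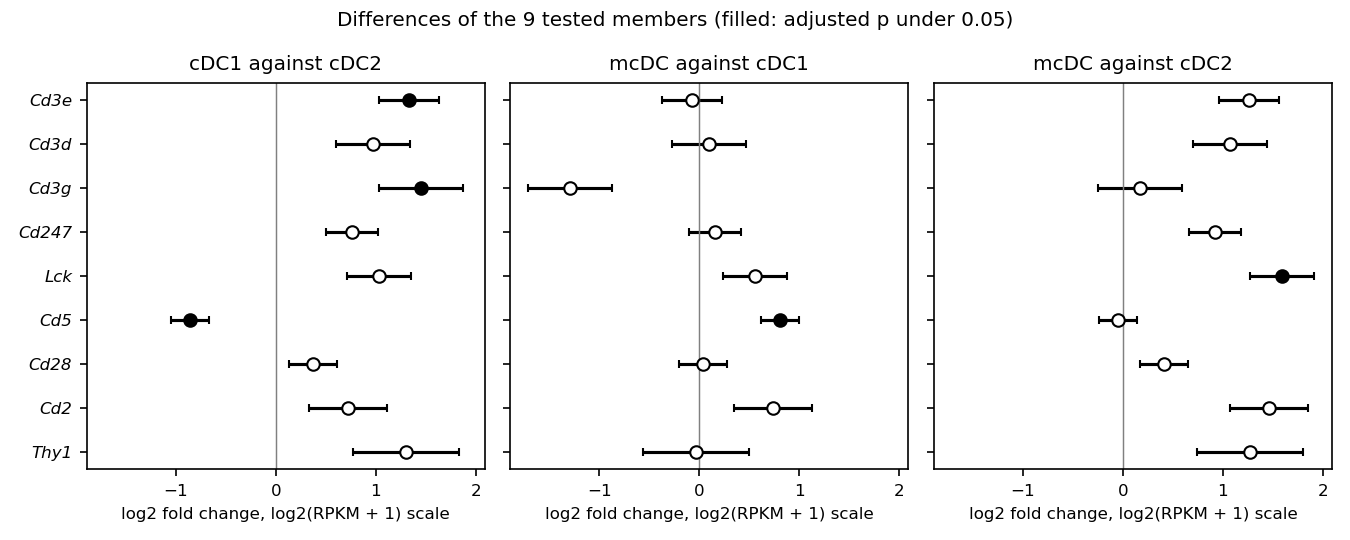
Difference in log2(RPKM + 1) for the 9 tested genes in the 3 comparisons, with bars of 1 standard error and filled points for genes called at an adjusted p under 0.05. Cd3e and Cd3g are called to the right and Cd5 to the left for cDC1 against cDC2, Cd5 is called for mcDC against cDC1, and Lck for mcDC against cDC2.

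The CD3 genes did not keep 1 proportion in the 3 subsets. The ratio of Cd3g to Cd3d RPKM was 2.31, 1.47 and 1.81 for cDC1, 1.37, 1.24 and 1.32 for cDC2, and 0.39, 0.713 and 0.628 for mcDC. Each mcDC library lay below 1 and each of the other 6 above it. The ratio of Cd3g to Cd3e spanned 1.39 to 2.2 in cDC1, 1.57 to 2.05 in cDC2 and 0.234 to 1.45 in mcDC, so that only the highest mcDC library reached the cDC1 range. For Cd3d to Cd3e the ranges were 0.6 to 1.22, 1.19 to 1.51 and 0.6 to 2.31, which overlap. The ratio of Cd5 to Cd3e was 1.11 to 1.24 in cDC1, 2.06 to 2.9 in mcDC and 4.25 to 13.4 in cDC2. These ratios were chosen after the values had been seen and carry no test, and the Cd3g counts in mcDC are small.

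**Figure D3:**
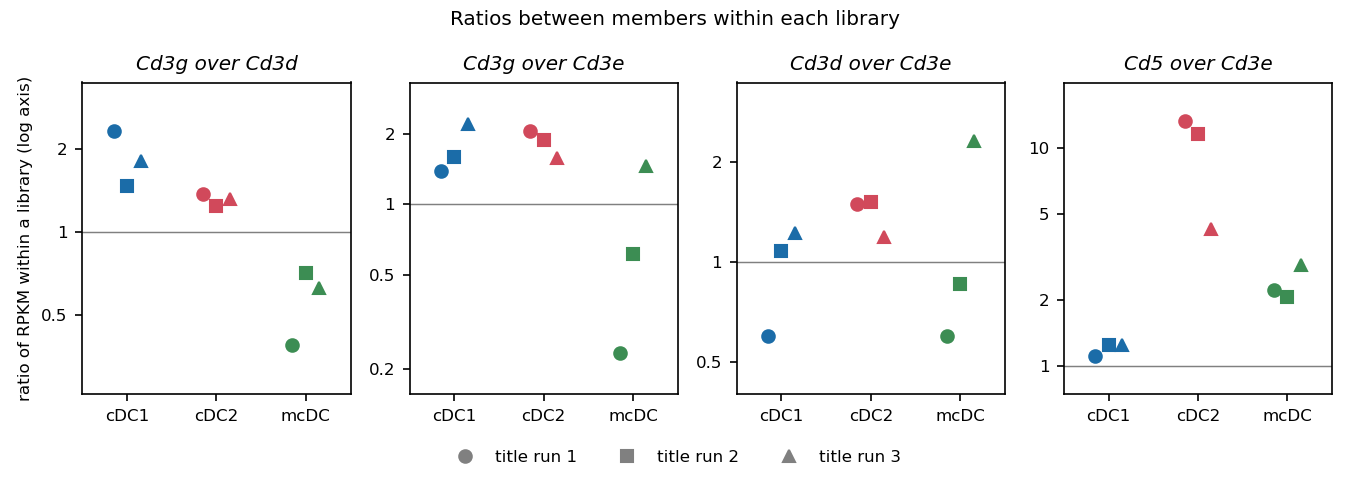
Ratios of RPKM between CD3 genes and of Cd5 to Cd3e, on a log axis, with 1 point per library in each subset. The 3 mcDC points for Cd3g over Cd3d lie between 0.39 and 0.713, below those of cDC1 and cDC2, which lie between 1.24 and 2.31.

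Levels also moved with the title run. Of the 10 genes, 9 had their highest cDC1 value in replicate 3, 8 their highest cDC2 value and 6 their highest mcDC value. The exceptions were Bcl11b in cDC1, Cd5 and Cd28 in cDC2, and Cd3e, Cd5, Cd28 and Cd2 in mcDC. The summed RPKM of Cd3e, Cd3d and Cd3g ranged from 13.9 to 27.3 in cDC1, from 3.97 to 10.7 in cDC2 and from 11.2 to 18.1 in mcDC. Every subset is present in each run, and the part of the run in a level was not tested apart from the fits with the run as a block.

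Over the 9 libraries, Pearson correlations of log2(RPKM + 1) between the genes were highest for Cd247 with Lck (0.93) and for Cd3d with Cd247, Lck and Thy1 (each 0.92). Cd3e with Cd3g had 0.53, and the correlation of Cd5 with the others lay between -0.71 and -0.04. The points share subset, run and depth, so these values are a description. The tested genes most alike to each were Ngfr, Synj2 and Ints5 for Cd3e (0.925 to 0.909), Smyd5, Ube2m and Ube2s for Cd3d (0.976 to 0.954), Polr2g, Txndc17 and Ndfip1 for Cd3g (0.964 to 0.956), and Sidt1, Mterf2 and Lck for Cd247 (0.962 to 0.934). For Lck they were Gimap3, Fgfr3 and Snhg1 (0.982 to 0.965), for Cd5 Bud13, Usp18 and Slc9a3r1 (0.967 to 0.955), for Cd28 Chchd10, 1700086O06Rik and Trak2 (0.962 to 0.937), for Cd2 Jchain, Ier5l and Pou2af1 (0.972 to 0.965), and for Thy1 Cacybp, Commd5 and Gnl3 (0.971 to 0.965). Lck was the only 1 of the 10 genes among them.

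The coreceptors that bring LCK to the receptor split the subsets. Cd8a, the CD8 alpha chain, was at 332 ± 22.6 RPKM in cDC1, 1.3 ± 0.101 in cDC2 and 5.81 ± 3.36 in mcDC (SD, n = 3), and cDC1 was 7.18 ± 0.27 above cDC2 with an adjusted p of 6.88e-07 by limma. Cd8b1, the CD8 beta chain found with CD8 alpha on cytotoxic T cells, had 139, 149 and 176 reads in the cDC1 libraries, 4, 6 and 6 in those of cDC2, and 0, 1 and 0 in those of mcDC. It was 3.08 ± 0.19 higher in cDC1 than in cDC2 and -3.44 ± 0.19 for mcDC against cDC1, with adjusted p values of 8.09e-06 and 1e-05 by limma. Cd4 was at 11.7 ± 7.82, 100 ± 20.6 and 59.6 ± 32.7 RPKM in cDC1, cDC2 and mcDC, and lower in cDC1 than in cDC2 by a difference of -3.15 ± 0.45 (adjusted p 0.000868, limma). The constant genes of the receptor's own antigen-binding chains were not analysed here.

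Of the kinases and adaptors that act next to the receptor, 18 were in the table and 16 were tested. In cDC1 against cDC2, 2 were higher and 4 lower, where 8.85% of all tested genes were called higher and 10.7% lower. Lat, the membrane adaptor, was among the higher ones and is named after its values were seen, at 7.06 ± 2.1 against 2.54 ± 0.885 RPKM. Its difference was 1.19 ± 0.30 with an adjusted p of 0.0198 by limma, and the call was lost without cDC1 replicate 3 (0.0867), cDC2 replicate 1 (0.0722) or cDC2 replicate 2 (0.085). Lcp2, which encodes SLP-76 and also serves receptors of myeloid cells, was lower in cDC1 than in cDC2, at 37.3 ± 2.49 against 105 ± 5.85 RPKM, with an adjusted p of 2.86e-05. Tespa1, which takes part in thymocyte receptor signalling, was lower in cDC1 as well, at 3.64 ± 0.819 against 11.3 ± 2.83 RPKM (adjusted p 0.00412, limma).

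In mcDC against cDC1, 5 of these 16 genes were higher and none lower, and against cDC2, 2 were higher and 1 lower, or 4 and 1 under the title-run block. Of all tested genes, 9.53% were called higher and 5.88% lower than in cDC1, and 2.06% and 1.6% against cDC2. The block called 6.46% of all tested genes in mcDC against cDC2. Zap70, the kinase that binds phosphorylated CD3 tails, was at 4.65 ± 2.13 RPKM in mcDC and 0.95 ± 0.132 in cDC2, a difference of 1.47 ± 0.27 with an adjusted p of 0.0173 by limma. That call was lost without any 1 of the 3 cDC2 libraries (0.0631, 0.0875 and 0.0638), without mcDC replicate 2 (0.0539) and with the 2 groups alone (0.0674). Txk, a TEC family kinase of T and NK cells, had a mean of 8.08 ± 5.01 RPKM in mcDC against 2.15 ± 1.24 in cDC1, a difference of 1.47 ± 0.39 with an adjusted p of 0.0314 by limma. Its call was lost without cDC1 replicate 1 (0.0977) or 2 (0.0949), without cDC2 replicate 2 (0.0538) or 3 (0.0518), with quantile normalization (0.0627) and with the 2 groups alone (0.0865). Fyn and Grap2, a second SRC family kinase and the adaptor GADS, were not called, and Fyn held means of 39.6 to 43.1 RPKM in the 3 subsets. Themis, a T cell signalling protein, had 32 to 76 reads in cDC1, 8 to 14 in cDC2 and 11, 2 and 0 in mcDC. The median difference of the 18 genes was 0.322, 0.388 and 0.334 in the 3 comparisons without a filter, beside 0, 0.09 and 0.071 for all genes.

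Of 16 genes further down the pathway, all tested, 2 were higher and 7 lower in cDC1 than in cDC2, or 3 and 8 under the title-run block. The shares of all tested genes were 8.85% higher and 10.7% lower, or 24.6% in either direction under the block. Rasgrp1, which activates RAS, had a mean of 2.53 ± 0.53 RPKM in cDC1 against 14.8 ± 1.41 in cDC2, a difference of -2.17 ± 0.25 (adjusted p 0.000248, limma). Ptpn6, the phosphatase SHP-1 of many blood cells, was at 125 ± 23.3 and 352 ± 23.1 RPKM, with an adjusted p of 8.25e-05. Prkcq, the kinase PKC theta, went the other way at 3.33 ± 0.883 against 0.859 ± 0.234 RPKM, with an adjusted p of 0.0177 that was lost without cDC1 replicates 1 or 3 or cDC2 replicates 1 or 2 (0.0509 to 0.0797). Between mcDC and cDC1, 4 were higher and 1 lower in mcDC, where 9.53% of all tested genes were called higher and 5.88% lower. Between mcDC and cDC2, 0 were called by limma or by voom on the reads, 4 had an unadjusted p under 0.05, and the title-run block called 2. The shares of all tested genes by limma were 3.66% called, 16.7% at that unadjusted p and 6.46% called under the block.

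Of 16 tested receptors of the CD2 and CD28 families and other T cell surface genes, 5 were higher and 3 lower in cDC1 than in cDC2, and mcDC had 5 higher and 1 lower against cDC1 and 6 higher against cDC2. Under the title-run block, 7 were higher and 3 lower in cDC1 than in cDC2, and 7 were higher in mcDC than in cDC2. Of all tested genes, 8.85% were called higher and 10.7% lower in cDC1 than in cDC2. The shares were 9.53% and 5.88% for mcDC against cDC1, and 2.06% and 1.6% for mcDC against cDC2. The block called 24.6% of all tested genes in cDC1 against cDC2 and 6.46% in mcDC against cDC2. Btla, an inhibitory receptor, was highest in cDC1 at 219 ± 24.7 RPKM, against 44.8 ± 5.62 in cDC2 (2.27 ± 0.21, adjusted p 8.11e-05, limma). Il2rb, a chain of the receptor for IL-2 and IL-15, was at 31.3 ± 5.97 RPKM in mcDC and 5.13 ± 1.16 in cDC2 (2.40 ± 0.21, adjusted p 0.000774, limma). Cd96, a receptor of T and NK cells, was at 5.02 ± 1.97 in mcDC and 0.857 ± 0.183 in cDC2 with an adjusted p of 0.00932, or 0.0545 without cDC2 replicate 2. Cd7 had a mean of 330 ± 68.6 RPKM in mcDC against 79.8 ± 53.1 in cDC1, with an adjusted p of 0.00318 by limma. In cDC2 its mean was 265 ± 27.3 RPKM, and mcDC against cDC2 was not called (adjusted p 0.722, limma). With quantile or median-of-ratios scaling the 5 and 6 genes higher in mcDC became 3 and 4.

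Of 10 tested transcription factors of the T lineage, 7 were higher and 1 lower in mcDC than in cDC1, and 4 were higher than in cDC2, or 5 under the title-run block. The shares of all tested genes were 9.53% higher and 5.88% lower than in cDC1, and 2.06% higher than in cDC2. The block called 6.46% of all tested genes against cDC2. Tcf7, the T lineage factor TCF-1, was at 61.0 ± 12.1 RPKM in mcDC against 18.4 ± 2.41 in cDC1 and 17.3 ± 6.54 in cDC2 (adjusted p 0.00152 and 0.00475, limma). Tbx21, which encodes T-bet, was at 17.8 ± 3.02 RPKM in mcDC against 2.57 ± 1.01 in cDC1 (2.42 ± 0.21, adjusted p 0.000111, limma). In cDC2 its mean was 9.62 ± 0.572 RPKM. The adjusted p for mcDC against cDC2 was 0.072 by limma, or 0.0423 under the title-run block. In cDC1 against cDC2, 1 was higher and 3 lower, or 1 and 4 under the block. There 8.85% of all tested genes were higher and 10.7% lower, or 24.6% in either direction under the block.

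Ligands of the same receptors were also measured. The group means of Cd80 and Cd86 lay above those of Cd28 in every subset, those of Cd48 above those of Cd2, and those of Cd72 above those of Cd5 in cDC2 and mcDC but not in cDC1. Cd86, a ligand of CD28, was at 139 ± 8.95 RPKM in cDC1, 33.4 ± 2.18 in cDC2 and 53.2 ± 8.0 in mcDC, and cDC1 was 2.02 ± 0.13 above cDC2 with an adjusted p of 8.38e-06 by limma. Cd80, the other ligand of CD28, was at 21.8 ± 3.8, 20.7 ± 2.76 and 19.8 ± 5.5 RPKM and was not called. Cd72, a reported ligand of CD5, was at 4.42 ± 1.11 RPKM in cDC1, 35.4 ± 1.66 in cDC2 and 41.7 ± 3.05 in mcDC, lowest in cDC1 like Cd5, with adjusted p values of 3.8e-06 for cDC1 against cDC2 and 5.81e-06 for mcDC against cDC1. Cd48, which binds CD2, was at 124 ± 16.8, 166 ± 16.3 and 186 ± 17.7 RPKM, and mcDC was 0.58 ± 0.14 above cDC1 (adjusted p 0.0188, limma, called in 14 of 19 fits). That call was lost with median-of-ratios scaling (0.0557) and with the 2 groups alone (0.0577). It was also lost without cDC1 replicate 2 (0.0934), cDC1 replicate 3 (0.077) or mcDC replicate 2 (0.06). Icosl, the ligand of ICOS, was at 196 ± 41.0, 177 ± 32.6 and 244 ± 61.0 RPKM and was not called, although the title-run block gave an adjusted p of 0.0307 for mcDC against cDC2 (0.0307 to 0.643 over the alternatives).

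Markers of other cells moved with some of these groups. Of 14 markers of natural killer cells, 0 were at 0 in any library. Their summed levels were 566 to 629 RPKM in cDC1, 471 to 748 in cDC2 and 771 to 1350 in mcDC. The highest sum was in mcDC replicate 3, where Lck, Thy1 and Cd3d were also at their highest of all libraries. Among the mcDC libraries, Cd3g, Cd247 and Bcl11b were highest there too. Cd3e and Cd28 were lowest there, and Cd2 and Cd5 were highest in another mcDC replicate. In mcDC, 7 of the 14 were higher than in cDC1 and 6 higher than in cDC2, beside 9.53% and 2.06% of all tested genes. In cDC1 against cDC2 0 were higher and 1 lower, beside 8.85% and 10.7%. Under the title-run block 10 of the 14 were higher in mcDC than in cDC2, and 2 were higher and 1 lower in cDC1 than in cDC2. Of all tested genes the block called 6.46% and 24.6% in these comparisons, in either direction. Ncr1, the receptor NKp46, was at 25.3 ± 5.97 RPKM in mcDC against 4.84 ± 0.774 in cDC1 and 3.57 ± 1.09 in cDC2 (adjusted p 0.000255 and 0.000774, limma). Xcl1, a chemokine of NK cells and CD8 T cells, reached 25.9, 39.4 and 97.5 RPKM in the mcDC libraries, while those of cDC1 held 4.7, 9.03 and 15.0 and those of cDC2 1.52, 2.25 and 3.84. Xcl1 was highest in replicate 3 of each subset. Ncr1 was highest in replicate 2 of mcDC (21.4, 32.2 and 22.3 RPKM) and of cDC1 (4.1, 5.64 and 4.79). In cDC2 it was highest in replicate 3 (2.67, 3.26 and 4.78). Natural killer cells are known to express Cd247, Lck, Cd2 and Thy1, and the part of such cells in these levels was not tested. By mean log2(RPKM + 1) the 10 genes lay at 2.11 to 2.78 in cDC1 and 2.16 to 2.71 in mcDC. The natural killer list lay at 3.28 to 3.62 in cDC1 and 4.13 to 5.24 in mcDC.

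Markers of B cells had summed levels of 58.9 to 64.8 RPKM in cDC1, 87.8 to 103 in cDC2 and 62.3 to 107 in mcDC, and at most 2 of the 11 were at 0 in a library. Innate lymphoid markers summed to 72.5 to 104, 67.6 to 120 and 73.2 to 164 RPKM, with at most 3 of 10 at 0. Those of neutrophils summed to 11.6 to 43.9, 191 to 1690 and 35.8 to 52.0 RPKM, highest in cDC2, with at most 4 of 10 at 0. Plasmacytoid dendritic cell markers summed to 114 to 209, 140 to 168 and 193 to 281 RPKM with at most 1 of 11 at 0. Those of monocytes and macrophages summed to 201 to 294, 1090 to 2060 and 674 to 1030 RPKM with 0 of 12 at 0. In mcDC replicate 3 the plasmacytoid sum, at 281 RPKM, was the highest of all libraries. The monocyte and macrophage sum (1030) and the neutrophil sum (52.0) were the highest of mcDC there. The B cell sum (62.3) and the innate lymphoid sum (73.2) were the lowest of mcDC there. Sums follow the highest genes, such as Lyz2 at a mean of 1110 RPKM in cDC2 against 211 in mcDC. By mean log2(RPKM + 1) the monocyte and macrophage list was highest in mcDC, at 5.19 to 5.79. It was at 4.32 to 5.07 in cDC2 and 3.27 to 3.81 in cDC1. For B cell markers that mean was 1.79 to 2.04 in cDC1, 1.82 to 2.07 in cDC2 and 1.78 to 2.49 in mcDC. The part of these cells in the levels of the 10 genes was not tested.

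**Figure D4:**
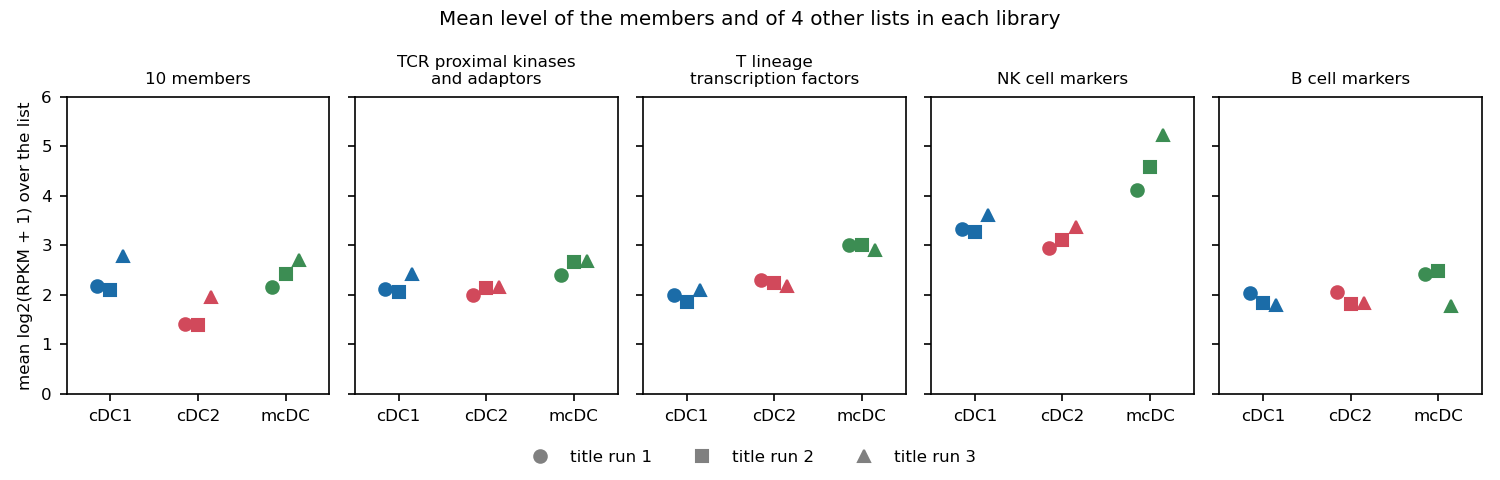
Mean log2(RPKM + 1) over the 10 genes and over 4 other lists in each of the 9 libraries, with marker shapes for the 3 title runs. The natural killer list lies at 4.13 to 5.24 in mcDC, above 2.95 to 3.62 in the other 6 libraries, while the 10 genes lie at 2.16 to 2.71 in mcDC, 2.11 to 2.78 in cDC1 and 1.39 to 1.95 in cDC2.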

How the data were processed

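RNA was measured in 9 libraries of sorted spleen dendritic cells, 3 each of cDC1, cDC2 and mcDC, made with a directional kit per the labels' protocols. The authors deposited RPKM per gene in 1 table, and 8 files of single libraries held the same values as their columns, with none for mcDC replicate 3. No header states the unit, and the step size of the values per gene and library identified it as RPKM. Whole reads were recovered from those steps for 100% of 126614 nonzero values, within 0.0001 of a whole read, and served for read numbers and for 1 alternative. Build mm8 is given in the submitters' processing notes, while aligner, counting tool, use of strand and annotation are not given in the sources used here. There were 0 columns of other samples.

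Tests were run on log2(RPKM + 1) with limma 3.58.1 (R 4.3.3) and a trended prior variance, for 11971 genes exceeding 1 RPKM in 2 or more libraries, with 6 residual degrees of freedom and a median standard error of 0.209. P-values were adjusted by the Benjamini-Hochberg method over all genes tested, within each comparison, at a threshold of 0.05. For low genes this scale gives less than the true fold. The 10 genes and all lists were chosen with earlier results of these data known. Of each list, up to 4 called genes with the largest change and up to 2 others with the highest level could be named, all ligands were named, and the 3 most correlated genes were named for each tested gene. Other genes are said to be named after their values were seen, or are given as reads or levels alone. A few genes of the lists are counted but not reported by name here.

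Each library's deviation from its group mean over 8358 genes was compared with that of libraries in the same title run. Correlations were 0.36, 0.17 and 0.48 for cDC1 with cDC2, 0.55, 0.24 and 0.45 for mcDC with cDC2 and 0.43, 0.07 and 0.39 for cDC1 with mcDC, and -0.55 to 0.01 for libraries of different runs. The runs were therefore taken to pair the libraries in both comparisons with cDC2, where the value with the title run as a replicate block is printed if it changes a call of one of the 10 genes or a count of a described list. For mcDC against cDC1, where the lowest pair was at 0.07, block counts of the lists are not printed. Deviations within a subset sum to 0, so positive values within runs push those between runs below 0. The values between runs are therefore not separate evidence. This pairing comes from the data and the title numbers, not from a stated batch.

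Alternatives were quantile normalization, median-of-ratios scaling, no filter, a pseudocount of 0.1, a filter at 5 RPKM, the 2 groups alone, no trend, the block, voom on the recovered reads, and leaving out each library. The block with mcDC replicate 3 left out was added after the data were seen. Python 3.11.15, numpy 2.4.6, pandas 2.3.3 and matplotlib 3.10.9 handled tables and figures.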

Additional observations from a re-analysis of the deposited data

How the results depend on the processing

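Over 19 alternatives, 52 differences of single genes gave 973 values, of which 875 kept their direction and their side of the threshold, 40 lost the call, 40 gained it and 18 changed sign. No value that changed sign was called. The ranges when 1 library was left out were -0.25 to 0.08 for Cd3e, -0.23 to 0.38 for Cd3d, -0.06 to 0.25 for Cd28 and -0.48 to 0.57 for Thy1 in mcDC against cDC1, and -0.19 to 0.52 for Cd3g and -0.16 to 0.03 for Cd5 in mcDC against cDC2. For mcDC against cDC1, Cd3e became 0.05 and 0.08 without cDC1 or mcDC replicate 3 and 0.30 with the block and mcDC replicate 3 left out, Thy1 became 0.29 and 0.57 without cDC1 replicate 3 or mcDC replicate 1, and Cd3d became -0.09 and -0.23 without cDC1 replicate 1 or mcDC replicate 3. There quantile normalization gave -0.04 for Cd3d, -0.02 for Cd247 and -0.11 for Cd28, median-of-ratios scaling gave -0.02 for Cd3d and Cd28, and Cd28 was -0.06 without cDC1 replicate 1. For mcDC against cDC2, Cd3g was -0.03 and -0.19 without cDC2 replicate 2 or mcDC replicate 3, and Cd5 was 0.02, 0.03 and 0.05 without cDC2 replicate 1, mcDC replicate 2, or with the block and mcDC replicate 3 left out. Of the 9 tested genes, those called in cDC1 against cDC2 numbered 5 with a pseudocount of 0.1, with the 2 groups alone and with voom, 8 with the block and with the block without mcDC replicate 3, and 1 to 6 when a library was left out. In mcDC against cDC1 they numbered 0 with the 2 groups alone (2 at an unadjusted p under 0.05), 3 in both fits with the block, and 0 to 2 when a library was left out. In mcDC against cDC2 they numbered 0 with the 2 groups alone (5 at an unadjusted p under 0.05), 6 and 4 in the fits with the block, and 0 to 3 when a library was left out. All genes called in the 3 comparisons were 2344, 1845 and 438. They became 3724, 1097 and 243 with the 2 groups alone, 2942, 2474 and 773 under the title-run replicate block, 4274, 3003 and 718 with the block and mcDC replicate 3 left out, and 1547 to 3467, 951 to 2601 and 158 to 896 when a library was left out. Counts over all genes are not given here for the pseudocount of 0.1 and voom, so the 5 genes called there have no share beside them. In mcDC against cDC1, where 1 pair correlated under 0.1, the block called Cd3g (adjusted p 0.00515, limma), Cd2 (0.0363) and Cd5. Each of the 9 libraries correlated best with its own run. Median-of-ratios scaling moved the median of all tested genes from 0.09 to -0.03 in mcDC against cDC1. Depth limits most the values with few reads, which fell to 9 for Cd247 in cDC2 and Cd28 in mcDC and to 12 for Cd3g in mcDC.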
